A study of Homo sapiens with 5 samples.

Results

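CDKN1A encodes p21, an inhibitor of cyclin-dependent kinases that halts the cell cycle, and it is the classical target gene of the transcription factor p53. When DNA is damaged, p53 is stabilised, binds response elements in the CDKN1A promoter and further upstream as a tetramer, and activates the gene. JMJD3 (KDM6B) removes methyl groups from lysine 27 of histone H3. It has no known DNA binding domain of its own, and it has been tied to active promoters and to p53. The binding of both proteins at the CDKN1A locus is described here as the sites that were listed between 36730000 and 36790000 on chromosome 6 of the hg18 assembly. In this 60 kb window CDKN1A runs on the plus strand from about 36754460 to about 36763090. The window was set by position alone, and it held 18 of the 43443 sites of the 4 lists.

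The cells were BJ fibroblasts, a human foreskin line immortalized with telomerase (hTERT), either untreated or exposed to 10 Gy of X-rays (IR). The labels put the harvest of irradiated cells at 6 h, and the study's text gives an earlier hour. Chromatin was pulled down with the antibody DO-1 against p53 or with a rabbit antibody against JMJD3, and peaks were called against an IgG control. The IgG library of the series came from untreated cells, and the series holds none from irradiated cells. There was 1 library for each protein and exposure, so differences between untreated and irradiated cells have no replicate check and no test was made. The lists give the start and end of each site and no height or score. Read depth is unknown, and a protein bound below the threshold of peak detection is not listed. Distances are counted from the approximate TSS at 36754460. CDKN1A has 12 transcripts in RefSeq (GRCh38.p14), and no other start was used. Exons and introns of hg18 were not used here, so sites are placed as upstream of the TSS, in the gene or downstream of it.

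The stretch just before the TSS carried a p53 site and a JMJD3 site after IR and is shown as sequence for this reason. The 250 bases before the start of CDKN1A are given from RefSeq, GRCh38.p14, chr6:36678464-36678713, plus strand. These positions belong to a different assembly from those of the sites and cannot be set beside them, and the RefSeq start need not be the same base as the approximate hg18 TSS. Capitals mark the matches to the GC box, GGGCGG, the motif of Sp1-type factors.
CDKN1A, 250 bases before the start: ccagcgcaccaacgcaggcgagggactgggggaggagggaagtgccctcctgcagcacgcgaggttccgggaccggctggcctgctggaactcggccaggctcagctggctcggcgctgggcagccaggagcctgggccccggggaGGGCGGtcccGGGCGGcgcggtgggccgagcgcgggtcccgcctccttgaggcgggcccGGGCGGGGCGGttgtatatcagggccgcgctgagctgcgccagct
The stretch held 4 GC boxes, all on the plus strand, of which the pair nearest to the start overlap in 1 base. Searched on both strands as GGGCGG, 42.6% of 35116 RefSeq promoters held at least 1 in the same 250 bases and 7.63% held 4 or more. Its GC content was 76.4%, against a median of 58.0% over these promoters. CATG, a form of the core of the p53 half-site and the only form searched by itself, reads the same on both strands. It had no match, whereas 47.6% of promoters held it. The full p53 half-site consensus had no match either and was present in 5.57% of promoters, and TATAAA was absent here and present in 10.7%. A missing match says only that these letters are not in this window.

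In untreated cells the locus had 3 p53 sites and no JMJD3 site. After IR it had 5 p53 sites and 10 JMJD3 sites. Over the whole lists p53 went from 361 to 3232 sites and JMJD3 from 4717 to 35133, so that both lists were much longer after IR. The narrowest JMJD3 site was 200 bp wide in untreated cells and 125 bp after IR, so the JMJD3 counts are not like for like. Of the 10 JMJD3 sites of the locus after IR, 8 were at least 200 bp wide. A stretch of 60 kb on chromosome 6 held a mean of 0.093 JMJD3 sites in untreated cells, so an empty window is common in that list. All p53 sites but one, the site in the gene after IR, lay upstream of the TSS. JMJD3 after IR lay mostly over the gene and beyond its end. The p53 sites covered 1258 bp of the window in untreated cells and 3093 bp after IR, and the JMJD3 sites after IR covered 11856 bp. Upstream of the TSS, p53 covered 5.14% of the 24460 bp in untreated cells and 10.9% after IR, and JMJD3 covered 2.75% after IR. Within the gene this order was turned around, with JMJD3 over 92.6% of the 8631 bp after IR and p53 over 5.06%. Downstream of the gene no p53 site was listed, and JMJD3 after IR covered 11.8% of 26910 bp.

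**Figure D1:**
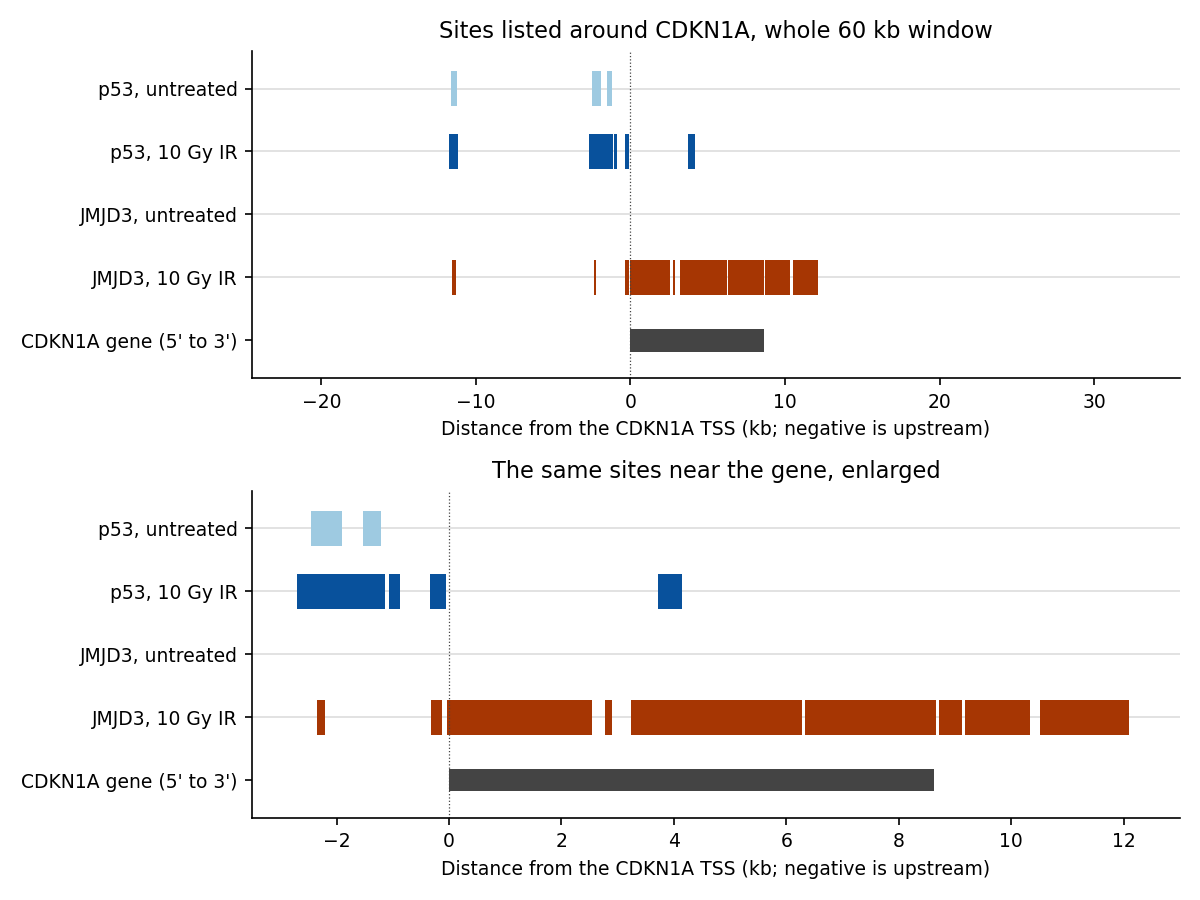
Sites of the 4 lists around CDKN1A, drawn to scale as boxes by distance from the TSS in kb (negative is upstream), with the whole 60 kb window above and the stretch near the gene below. The 3 p53 sites of untreated cells lie within p53 sites of irradiated cells, the row of JMJD3 in untreated cells is empty, and the JMJD3 sites after IR form a nearly closed row over the gene.

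**Figure D2:**
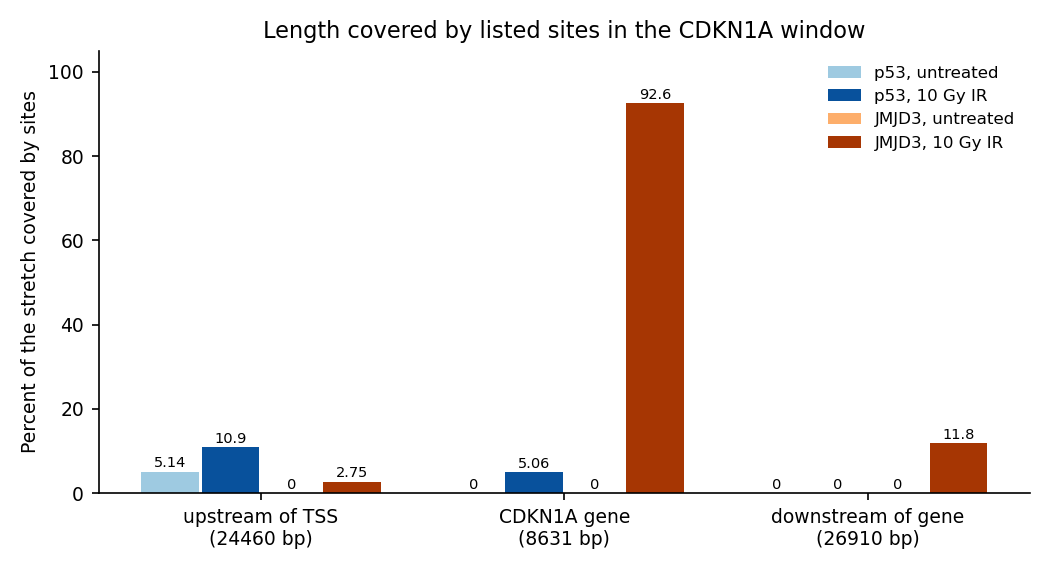
Percent of each stretch of the CDKN1A window covered by listed sites, with 1 bar per list (1 library each, no error bars). JMJD3 after IR covers 92.6% of the gene, whereas p53 covers more than JMJD3 upstream of the TSS.

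The distal element that the study places 11 kb upstream of CDKN1A carried p53 before IR and both proteins after it. Distal elements of this kind can act as enhancers, which raise the activity of a promoter from afar. By separate PCR on precipitated chromatin, the study reported more p53 and JMJD3 at this element after IR, and features of an active enhancer. It also reported less of both proteins there in irradiated cells with p53 knocked down. In untreated cells its p53 site ran from 36742841 to 36743222, which is 11619 to 11238 bp upstream of the TSS, and was 382 bp wide. After IR the p53 site ran from 36742694 to 36743322 and was 629 bp wide, so that it contained the earlier site and was 1.65 times as wide. It ranked 113 by width among 3232 p53 sites. JMJD3 was listed there after IR, from 36742930 to 36743207. This JMJD3 site of 278 bp lay wholly inside the p53 site, with the centres 60 bp apart. Between 9 and 13 kb upstream these were the only sites in the 4 lists, and the nearest JMJD3 site of untreated cells was 56.1 kb from the p53 site after IR.

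The upstream promoter held the widest site of all p53 sites after IR. In untreated cells p53 had a pair of sites here. The first ran from 36752000 to 36752551, 2460 to 1909 bp upstream of the TSS, and was 552 bp wide. Only 7 of the 361 p53 sites of untreated cells were wider. The second ran from 36752921 to 36753244, 1539 to 1216 bp upstream, and was 324 bp wide. After IR a single site of 1554 bp, from 36751759 to 36753312, spanned both and the 369 bp between them. It reached from 2701 to 1148 bp upstream. Of the 343 p53 sites after IR that overlapped a site of untreated cells, this was 1 of 2 that overlapped more than 1. Since separate sites were joined, its width cannot be read as the growth of either one. The JMJD3 site here was narrow. It was 156 bp wide, from 36752102 to 36752257, and shared 10.0% of the p53 site. It lay within the more distant of the earlier p53 sites and had no counterpart at the nearer one, which was 663 bp from the closest JMJD3 site after IR.

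Closer to the TSS, p53 had a pair of sites that were listed after IR only. One ran from 36753390 to 36753589, 1070 to 871 bp upstream, only 77 bp after the end of the 1554 bp site. It was 200 bp wide, the smallest width in the list, shared with 346 other sites, and it was the one p53 site of the locus after IR without JMJD3. The nearest JMJD3 site after IR was 546 bp away. The other, from 36754126 to 36754398, lay 334 to 62 bp upstream of the TSS and was 273 bp wide, close to the median of 288 bp for p53 after IR. A JMJD3 site of 203 bp, from 36754136 to 36754338, fell wholly within it and covered 74.4% of it, with the centres 25 bp apart. Counted over the 250 bp before the hg18 TSS, p53 sites covered 189 bp after IR and JMJD3 sites 165 bp, and neither protein had a site there in untreated cells.

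Inside the gene p53 had 1 site, again after IR only. It ran from 36758174 to 36758610, 3714 to 4150 bp downstream of the TSS, and was 437 bp wide, with 14.7% of the p53 list wider. Here the arrangement was the opposite of the upstream pairs, since the p53 site lay wholly inside a JMJD3 site of 3041 bp, the widest of the locus, and the centres were 821 bp apart. Over all 710 overlapping pairs of a p53 and a JMJD3 site after IR, the JMJD3 site lay inside the p53 site in 35.5% and the p53 site inside the JMJD3 site in 12.7%, and the median distance of the centres was 72.5 bp. At CDKN1A the counts were 3 and 1 of 4 pairs.

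JMJD3 after IR was listed as 8 sites in a row from 36754136 to 36766563, from 324 bp before the TSS to 3473 bp past the end of the gene. The gaps between them measured 58 to 339 bp. The first was the 203 bp site described at the promoter. The next, from 36754424 to 36756998, took in the TSS and was 2575 bp wide. A site of 125 bp, the smallest width in this list, followed from 36757229 to 36757353. The site with p53, from 36757693 to 36760733, was 3041 bp wide, and only 19 of the 35133 JMJD3 sites after IR were wider. The site from 36760800 to 36763123 was 2324 bp wide and crossed the end of the gene by 33 bp. The last 3 lay beyond the gene. They ran from 36763182 to 36763587 (406 bp), from 36763646 to 36764800 (1155 bp) and from 36764971 to 36766563 (1593 bp). The median width over the whole list was 187 bp. The sites of the row covered 11422 bp, 91.9% of its length, whereas no p53 site lay beyond 4150 bp downstream of the TSS.

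The overlap of the lists at CDKN1A was set beside that over the whole lists. JMJD3 after IR overlapped 4 of the 5 p53 sites after IR at the locus, and 21.2% of all 3232 (exact 95% binomial interval 19.8 to 22.7%). When 50% of the p53 site had to be covered, 2 of the 5 remained, against 12.9% (11.7 to 14.1%) of the list under the same rule. From the other side, 4 of the 10 JMJD3 sites overlapped p53, against 2.02% of all 35133 (1.88 to 2.17%). Of the 5 p53 sites 2 overlapped a p53 site of untreated cells, with 10.6% (9.57 to 11.7%) over the list. Both of these also overlapped JMJD3 after IR, which 3.47% (2.86 to 4.15%) of all p53 sites after IR did together. No p53 site of the locus overlapped JMJD3 of untreated cells, and 2.63% (2.11 to 3.24%) of the list did. The 3 p53 sites of untreated cells were all listed again after IR, as were 95.6% (92.9 to 97.4%) of the 361, and 2 of the 3 overlapped JMJD3 after IR, against 28.5% (23.9 to 33.5%). The 5 p53 sites share 1 locus and are not independent, and the intervals cover counting error only. By length, JMJD3 overlapped 34.7% of the p53 sequence of the window after IR and 12.9% of that of the whole list.

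At the element 11 kb upstream the width ratio of 1.65 was within the range of the list. Over 341 p53 sites that overlapped 1 site before and 1 after IR, the median ratio was 1.83, with quartiles of 1.58 and 2.11, and all 341 were wider after IR. The earlier site lay wholly inside the later one at 99.4% of the 345 overlapping p53 sites of untreated cells, as at all 3 sites of the locus.

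The p53 sites were dense at CDKN1A. When p53 sites after IR with gaps of up to 5 kb were joined, a limit chosen after the values were seen, the 4 sites from 36751759 to 36758610 formed a cluster of 6.85 kb, and no other of the 3149 clusters and single sites held 4. Among consecutive 60 kb stretches of the genome, with 1 stretch placed on the window, 3013 held a p53 site after IR, and the CDKN1A window came first both by number of sites and by length covered, with 3093 bp against a median of 297 bp. It also came first among the 351 stretches with a p53 site in untreated cells, with 1258 bp against a median of 296 bp. The first place by length held when sites within 1 kb were merged and when only the wider 50% of each list was kept. The first place by number did not hold, since both settings left 3 p53 sites after IR in the window. With sites merged, 1 stretch held more and 8 others as many, and in the wider 50%, 2 others held as many. In untreated cells merging left 2 p53 sites, as in 8 other stretches. Outside the window the nearest p53 site after IR ended 70.2 kb before the TSS and the next began 120 kb after the gene, and the nearest p53 sites of untreated cells were 5340 kb before the TSS and 557 kb after the gene. Chromosome 6 held 192 p53 sites after IR, 1.13 per Mb, and 32 in untreated cells, 0.188 per Mb.

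For JMJD3 after IR the window held 10 sites, against a mean of 0.665 per 60 kb on chromosome 6, and 320 of 14478 stretches held more. This number depends on how neighbouring sites are counted. With sites within 1 kb merged the window held 3, the ratio of its density to that of chromosome 6 fell from 15.0 to 5.62, and 1462 stretches held more. By length covered, 17 stretches had more than its 11856 bp, and the median was 307 bp. With sites merged, which counts the gaps as covered, 52 stretches had more. Of the 1828 stretches with both proteins after IR, 3 had more length under JMJD3, and the next highest length under p53 was 2016 bp. Outside the window the nearest JMJD3 sites after IR were 61.4 kb before the TSS and 165 kb after the gene. The nearest JMJD3 sites of untreated cells lay 67.8 kb before the TSS and 225 kb after the gene.

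**Figure D3:**
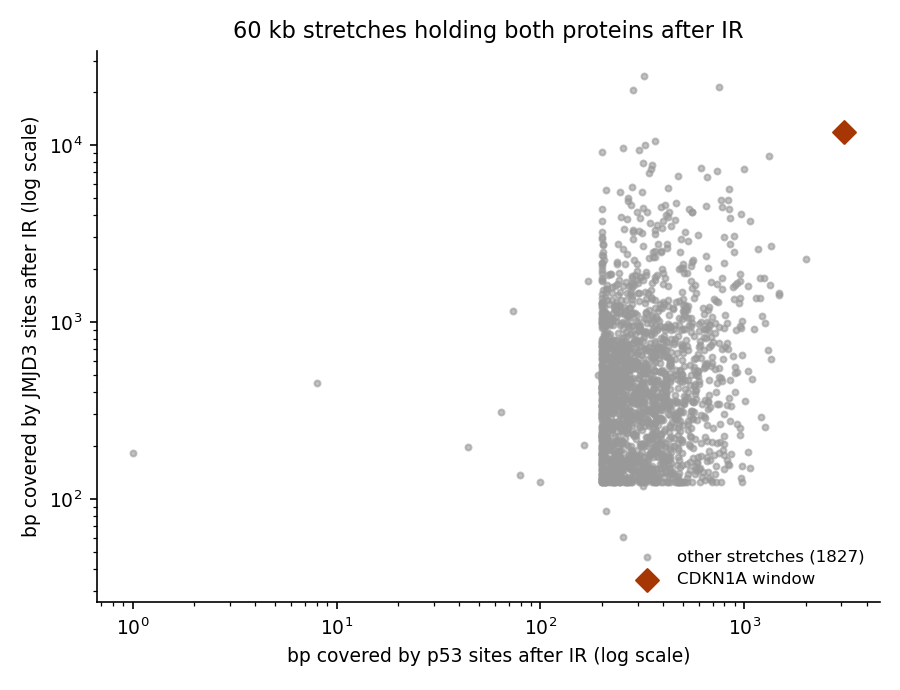
Length covered by p53 sites (x axis) and by JMJD3 sites (y axis) after IR in the 1828 stretches of 60 kb that held both proteins, in bp on log axes, with 1 point per stretch. The CDKN1A window, at 3093 bp for p53 and 11856 bp for JMJD3, lies to the right of all other stretches, and 3 lie above it.

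None of the JMJD3 sites of at least 1 kb at CDKN1A was listed in untreated cells, unlike most sites of this width. None of the 10 JMJD3 sites of the locus overlapped JMJD3 of untreated cells, which 11.9% (11.6 to 12.2%) of all JMJD3 sites after IR did. That share is set by the many narrow sites. Of the 293 sites of at least 1 kb, 276 overlapped JMJD3 of untreated cells (94.2%, exact 95% interval 90.9 to 96.6%), whereas 0 of the 5 such sites at CDKN1A did. These 5 made up part of the 17 sites of at least 1 kb without a counterpart before IR. The other 12 were spread over 10 chromosomes, the widest was 1444 bp wide, and 2 of them overlapped p53 after IR. From 2 kb up, 3 of 60 sites had no counterpart, and all 3 lay at CDKN1A. From 500 bp up the contrast was smaller, since 520 of 1595 sites had no counterpart and 67.4% had one, and the 5 sites at CDKN1A were among the 520. These limits were chosen after the values were seen, and no test was made of this contrast. The 5 sites are neighbours in 1 row and are not independent. With no JMJD3 site of untreated cells in the window, none of the 10 could overlap one, so these counts repeat 1 observation.

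The same held when neighbouring JMJD3 sites after IR were joined across gaps of up to 500 bp, a limit also chosen after the values were seen. The row over CDKN1A was then a run of 12.4 kb, and 3 of 29104 runs and single sites were longer, up to 27.1 kb. Of the 61 runs of at least 5 kb, 59 held a JMJD3 site of untreated cells (96.7%, 88.7 to 99.6%), and such sites covered a median of 46.1% of the length over the 61 runs. The CDKN1A run held none, which follows from the absence of such sites in the window. The other run without one lay on chromosome 12 from 67530032 to 67535480 and was 5.45 kb long. A p53 site after IR was found in 3 of the 61 runs (4.92%, 1.03 to 13.7%), the CDKN1A run among them with the sites at the promoter and in the gene. The p53 site was absent from the chromosome 12 run. The rank of the CDKN1A run depends on the gap. With a gap of 1000 bp its length was the same and 13 runs were longer. With a gap of 250 bp it broke at the 339 bp gap into a piece of 3218 bp over the TSS and a piece of 8871 bp over the rest of the gene and beyond, and 2 runs elsewhere were longer than the latter.

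**Figure D4:**
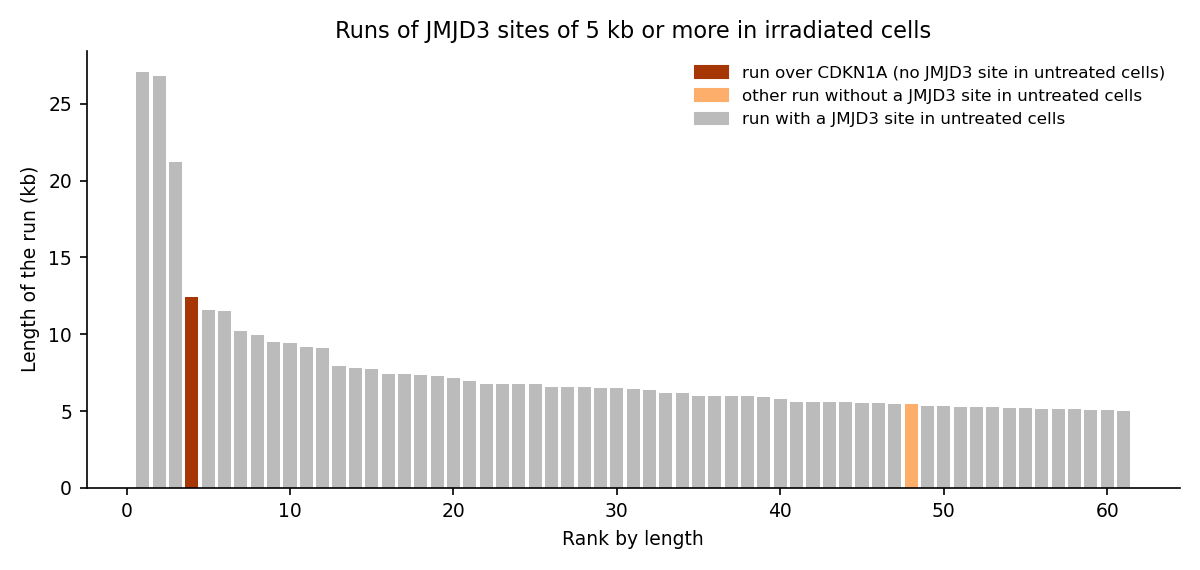
Length in kb of the 61 runs of JMJD3 sites of at least 5 kb in irradiated cells, ordered by length, with 1 bar per run. The run over CDKN1A is the fourth bar, at 12.4 kb, and the one other run without a JMJD3 site in untreated cells measured 5.45 kb.

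In RefSeq (GRCh38.p14) the nearest protein-coding neighbours of CDKN1A are SRSF3, a splicing factor, on the upstream side and RAB44 on the downstream side. The long non-coding RNA genes PANDAR and DINOL, both known as p53-induced transcripts of this locus, lie close to it in gene order as well. Their hg18 positions were not used here, so no site was placed against them, and reads at the locus were not assigned to one gene or another.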

How the data were processed

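Per the labels and the study's methods, the authors aligned tags to hg18 with Bowtie 0.12.7, kept unique alignments, and called peaks per library with MACS2 against an IgG control. The threshold is not given in the sources used here. The 4 deposited lists hold 3 columns (chromosome, start, end). The IgG library, from untreated cells, was not analysed here. Binding in repeated sequence is missed, and site number and width can depend on depth.

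Positions are printed counting from 1. Overlap meant at least 1 bp shared, computed with numpy 2.4.6 and pandas 2.3.3 in Python 3.11.15, tested on simulated data and checked with bedtools 2.31.1. Intervals are exact (Clopper-Pearson, scipy 1.17.1). Figures used matplotlib 3.10.9. Counts of sites upstream, in the gene and downstream follow the centre of a site, and covered lengths were cut at the TSS and the gene end. The window and the gene borders were given by position. All sites of lists with at most 10 sites in the window were named. CDKN1A matched 1 RefSeq entry by symbol. The locus and the comparisons were chosen with earlier results of these data known. With 1 library per group, sites were described without a test between conditions.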

Additional observations from a re-analysis of the deposited data

How the results depend on the processing

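Of 110 planned comparisons of 29 values with an alternative, 92 changed by at most 1.5 times and 18 by more. The cause of these changes was not tested. Part of the 92 set 0 against 0, among them all values of JMJD3 in untreated cells. No p53 site was narrower than 200 bp, so a limit of 200 bp could not change p53 counts or lengths. The 92 are therefore no measure of stability. No JMJD3 site of untreated cells entered the window under any of the alternatives. Counting the wider 50% of each list left 3 p53 sites after IR, 2 of them with JMJD3, against 13.7% of the wider 50% of the p53 list. Merging sites within 1 kb left 3 p53 and 3 JMJD3 sites after IR. With 50% of the width covered, 2 p53 sites after IR overlapped JMJD3 (12.9% of the list), and with sites within 1 kb counted, 4 overlapped p53 of untreated cells (10.9% of the list). With the TSS 500 bp upstream, p53 after IR covered 710 bp of the gene with 2 sites, and JMJD3 covered 434 bp upstream, against 1173 bp with the TSS 500 bp downstream. The density of sites over that of chromosome 6 was 266 for p53 in untreated cells, 73.9 for p53 and 15.0 for JMJD3 after IR. It was 532, 148 and 30.1 in a window of 30 kb, and 160, 44.4 and 9.02 in a window 20 kb longer on either side. With sites merged it was 44.8 for p53 and 5.62 for JMJD3 after IR. Of 35 comparisons added after seeing the data, 14 moved, by more than 1.5 times or, for a percentage, beyond its exact 95% interval. With a gap of 100 bp the longest piece of the run over CDKN1A measured 7108 bp, with 3 longer runs elsewhere. With gaps of 100, 250 and 1000 bp, 0 longer runs elsewhere lacked a JMJD3 site of untreated cells. In the wider 50% of the list, 168 stretches of 60 kb held more JMJD3 sites after IR than the window. The p53 cluster at the TSS held 3 sites with a gap of 1 kb and 5 with 10 kb. Of the JMJD3 sites of at least 500 bp after IR 67.4% had a counterpart before IR. No paired analysis was possible because each group has 1 library. Unknown depth limits every comparison before and after IR.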
